A study of Rattus norvegicus with 26 samples.

Results

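The genes described here are the nuclear-encoded parts of the mitochondrial respiratory chain and of the ATP synthase that follows it. They were taken as every gene whose single annotated symbol begins with Nduf, Uqcr, Sdha to Sdhd, Cox4 to Cox8, or Atp5, which gave 90 of the 14217 genes that the array names with 1 symbol. Each gene was read from 1 probe set, the one with the highest mean over all 26 arrays. The 90 genes hold 34 of complex I, 4 of complex II, 7 of complex III, 19 of complex IV, 16 of complex V and 10 assembly factors that carry the Nduf or Sdh prefix. Cox6c-ps1, counted with complex IV, is annotated as a transcribed pseudogene, and Atp5if1, counted with complex V, is an inhibitor of the synthase. Both are kept where subunits are counted.

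The study exposed rats to progressive feed restriction and measured total RNA on Affymetrix rat arrays, with 1 array for each of 13 restricted and 13 control animals. All were inbred male Long-Evans (Turku/AB) rats aged 11 to 15 weeks at the start, and every rat, controls included, was given 4 mL/kg of corn oil on day 0. In the 4-day regimen the restricted rats were given 18, 12, 9 and 6 g of pelleted feed on days 0 to 3, and inguinal white adipose tissue (4 restricted, 4 control) and liver (4 restricted, 4 control) were taken. In the 10-day regimen the restricted rats ate freely on day 0 and then had a ration of powdered feed that began at 16 g on day 1 and ended at 1 g on day 9, and liver was taken (5 restricted, 5 control). Controls had free access to feed, and the restricted rats received the whole ration at once during the light hours. The 3 sets were pre-processed apart, so a level is compared only within a set.

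The respiratory chain passes electrons from NADH (through complex I) and from succinate (through complex II) to coenzyme Q, then through complex III and cytochrome c to complex IV, where oxygen is reduced. Complexes I, III and IV pump protons across the inner mitochondrial membrane, and complex V uses the return of the protons to make ATP. Most of the subunits are encoded in the nucleus and imported, and in the fasting liver the chain takes up the electrons set free by fatty acid oxidation, while white adipose tissue has few mitochondria for its mass.

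The tissue labels were checked against marker genes. The summed level of 7 adipocyte markers was 17.02 to 17.33 on the log2 scale on the adipose arrays, and that of 6 hepatocyte markers was 17.85 to 18.07 on the liver arrays. Of 8 brown and beige fat markers 4 had a mean below 4 in adipose tissue, among them Ucp1, the uncoupling protein of brown fat (2.21 ± 0.0288 in controls and 2.23 ± 0.0255 in restricted rats, SD, n = 4 each). Cidea, a lipid droplet protein also found in white fat, was at 11.19 ± 0.422 in controls and 10.74 ± 0.303 in restricted rats, and Cpt1b, which admits fatty acids to mitochondria, at 8.39 ± 0.617 and 7.60 ± 0.293, neither of them called. There 11 of 12 skeletal muscle markers had a mean below 4. Array medians were 4.01 to 4.11 for adipose tissue and 3.16 to 3.32 for liver. Of the 90 genes, 83 lay above the median of their arrays on at least 1 array of each set. The 7 others in liver were Cox4i2, Cox6a2, Cox6b2, Cox7a1, Cox7b2, Cox8b and Ndufa4l2, and in adipose tissue Cox6b2 was measured while Ndufb8 took its place below the median. In such bulk samples fewer cells of a type and less RNA per cell cannot be told apart.

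In day 10 liver 38 of the 90 genes rose, none fell and 52 were not called (limma with Benjamini-Hochberg adjustment over 31042 probe sets, adjusted p below 0.05). Over all probe sets tested, 5.82% were called higher and 5.36% lower. Among bright probe sets, taken as those whose mean reached 10, 28.8% were called higher and 22.9% lower, against 52.2% and 0% of the 67 respiratory chain genes that are that bright. At an unadjusted p below 0.05, 53 genes were higher and 1 lower, against 10.3% and 9.76% of all probe sets. Weighting the arrays by their quality called 1 gene lower, against 7.6% of all probe sets. The median change of the 90 genes was 0.15 (log2, restricted minus control), 78 of them lay above 0, and the median over all genes with 1 symbol was 0.00. The values of the restricted rats lay wholly above those of the controls for 34 genes and wholly below for none, where 5.88% and 5.48% of all probe sets did so.

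At day 4 in liver 5 genes rose and 1 fell, where 2.94% of all probe sets were called higher and 2.64% lower, or 5.58% in either direction. The restricted values lay wholly above the control values for 11 genes and wholly below for 4, against 5.81% and 5.08% of all probe sets. The median change of the 90 genes was 0.01, with 48 above 0 and 42 below, and with 6 calls their share was near that of all probe sets. Among bright probe sets the shares were larger, with 18.3% called higher and 12.8% lower. Of the 65 respiratory chain genes that are that bright, 7.69% were called higher and 1.54% lower. The 5 that rose were the complex I subunits Ndufa6, Ndufs7, Ndufc2 and Ndufb3 and the supercomplex factor Cox7a2l, and the 1 that fell was the complex III subunit Uqcrq. All of the 5 also rose in day 10 liver. The count of 5 was 2 without restricted replicate 1, and 3 without control replicate 1, 2 or 4 or restricted replicate 3.

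In adipose tissue none of the 90 genes was called, where limma called 0.0161% of all probe sets higher and 0.0387% lower, or 0.0548% in either direction. At an unadjusted p below 0.05, 53 of the genes were lower and none higher, against 5.74% and 1.95% of all probe sets. The median change was -0.28 and 83 genes lay below 0, while the median over all genes with 1 symbol was 0.01. With the arrays quantile normalized the median change of the 90 genes was -0.18. Bright probe sets leaned the same way: their median was -0.10, with 2200 of 3165 below 0. The values of the restricted rats lay wholly below those of the controls for 40 genes and wholly above for none, where 3.89% and 2.2% of all probe sets did so. Other ways of estimating the spread ended this count of 0: 27 genes were called lower with weighted arrays (2.7% of all probe sets), in a weight estimate that did not converge, and 49 with 1 spread shared over the 3 sets (3.28%).

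**Figure D1:**
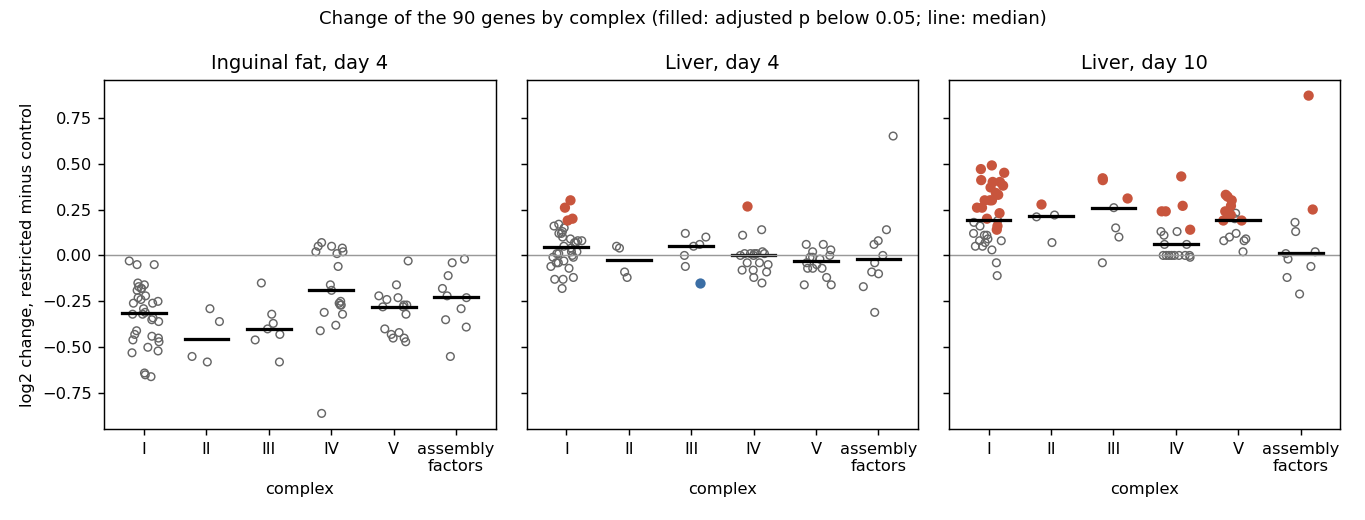
Change of each of the 90 genes (log2, restricted minus control) by complex in the 3 sets, with each point a gene, filled where the adjusted p was below 0.05, and a line at the median. Adipose points lie mostly below 0 with none filled, day 4 liver points lie around 0, and day 10 liver points lie mostly above 0 with 38 filled.

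The mean of the 80 subunits (assembly factors left out, Cox6c-ps1 and Atp5if1 kept) was taken on each array relative to the control mean of its set. In adipose tissue the controls stood at 0.03, -0.09, -0.11 and 0.17 and the restricted rats at -0.43, -0.27, -0.31 and -0.19. In day 10 liver the controls stood at 0.00, 0.04, -0.03, 0.04 and -0.05 and the restricted rats at 0.10, 0.12, 0.22, 0.18 and 0.29. The groups did not overlap in either set, whereas in day 4 liver the controls (-0.04 to 0.03) and the restricted rats (-0.03 to 0.04) covered the same range.

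**Figure D2:**
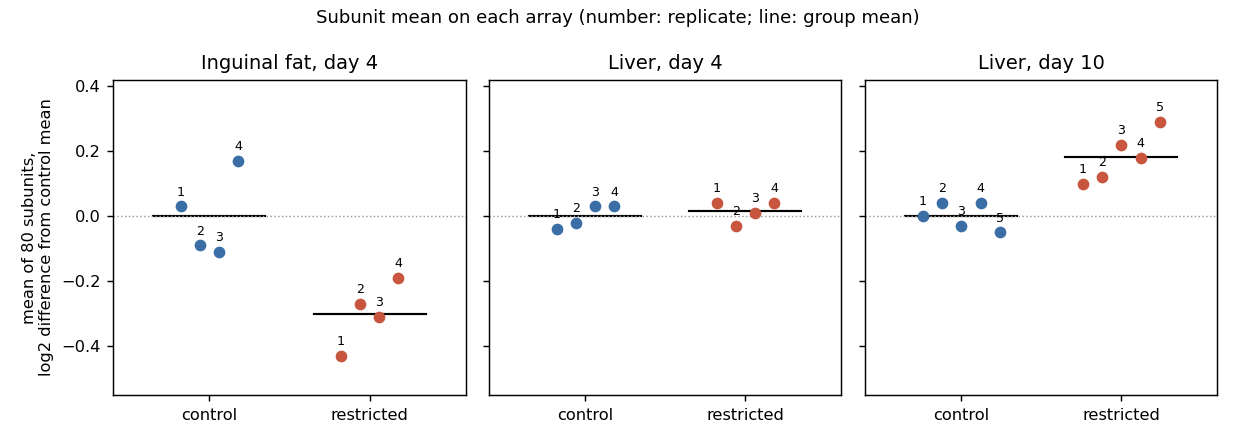
Mean of the 80 subunits on each array (log2 difference from the control mean of the set), with the replicate number at each point and a line at the group mean. The restricted arrays lie below the controls in adipose tissue, among them in day 4 liver, and above them in day 10 liver.

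Some arrays stood apart. In adipose tissue control replicate 4 held the highest value of 66 of the 90 genes. Without it 79 genes lay below 0, the median was -0.23, and 40 genes still had groups that did not overlap. Fewer arrays make this easier: the share of all probe sets with restricted values wholly below went from 3.89% to 4.22%. The adipose arrays were scanned on 1 day, but no fluidics protocol is recorded for the 4 controls and one is recorded for the 4 restricted rats, so that handling and diet cannot be told apart. In day 10 liver restricted replicate 5 held the highest value of 55 genes. Without it 74 genes lay above 0, the median was 0.13, and 34 genes still had groups that did not overlap. The share of all probe sets with restricted values wholly above went from 5.88% to 6.4%. The day 10 arrays were scanned on 2 days. The median change was 0.08 within the first (3 controls, 2 restricted) and 0.22 within the second (2 controls, 3 restricted), and 61 and 86 of the 90 genes lay above 0 on the first and the second day, 60 of them on both. Of the 38 genes that rose, a choice made on the same arrays, 36 had the larger change on the second day. With scan day as a block 35 genes were called higher, and within the single days 9 (0.925% of all probe sets) and 5 (2.02%).

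Markers of other cells moved in the same livers. At day 10, 8 of 9 macrophage and Kupffer cell markers fell, with a median change of -1.10 and a summed level of 13.20 to 13.64 in controls and 12.09 to 12.64 in restricted rats, and 2 of 3 red blood cell markers fell. At day 4, 5 of the 9 macrophage markers fell, with a median change of -0.61. The summed hepatocyte level was 17.96 to 18.02 in day 10 controls and 17.92 to 18.02 in restricted rats. In adipose tissue no marker of the 9 cell type lists was called, but some leaned downward with the chain. All 7 adipocyte markers lay below 0 (median -0.18), with a summed level of 17.11 to 17.33 in controls and 17.02 to 17.19 in restricted rats. All 6 hepatocyte markers lay below 0 there too (median -0.78), with a summed level of 13.82 to 14.59 in controls and 13.16 to 14.26 in restricted rats. Of these 6, however, 4 had a mean below 4. The brown and beige list summed to 11.00 to 11.97 and 10.63 to 11.26, with a median change of 0.02. The part of these cells in the changes of the respiratory chain was not tested.

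Complex I, the NADH dehydrogenase, had the largest share of calls in day 10 liver: 19 of its 34 genes rose, with a median change of 0.20. Ndufs3, a core subunit of the arm that hands electrons to coenzyme Q, read 11.09, 11.16, 10.95, 11.07 and 10.93 in the controls and 11.36, 11.41, 11.64, 11.53 and 11.70 in the restricted rats. Every restricted value lay above every control value, a rise of 0.49 (SE 0.07, adjusted p = 0.00269). Ndufs7, an iron-sulfur subunit of the same arm, read 11.46, 11.50, 11.40, 11.52 and 11.47 in controls and 11.85, 11.78, 11.92, 11.95 and 12.19 in restricted rats. It rose by 0.47 (SE 0.07, adjusted p = 0.00212), and restricted replicate 5 was the highest by a clear margin. Ndufa5, an accessory subunit of that arm, rose by 0.45 (SE 0.05, adjusted p = 0.000652), from 10.24 ± 0.0611 to 10.69 ± 0.105 (SD, n = 5 each).

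Of the 3 flavoprotein subunits at the NADH-binding end of complex I, Ndufv1 and Ndufv2 rose in day 10 liver, and Ndufv3 was not called (-0.11, adjusted p = 0.39). Ndufv1, which carries the NADH site, rose by 0.38 (SE 0.08, adjusted p = 0.0124), from 11.04 ± 0.056 to 11.42 ± 0.175 (SD, n = 5 each). Ndufv2, its iron-sulfur partner, read 12.31, 12.33, 12.18, 12.34 and 12.28 in controls and 12.46, 12.51, 12.70, 12.54 and 12.71 in restricted rats, a rise of 0.30 (SE 0.06, adjusted p = 0.0083). Ndufs1, the largest iron-sulfur subunit, read 11.45, 11.48, 11.42, 11.52 and 11.33 in controls and 11.68, 11.65, 11.81, 11.73 and 12.01 in restricted rats, a rise of 0.34 (SE 0.07, adjusted p = 0.0115). The groups did not overlap for Ndufv1, Ndufv2 or Ndufs1. Among the accessory subunits Ndufa6 rose by 0.41, and Ndufab1, the mitochondrial acyl carrier protein, by 0.40. The other complex I genes that rose did so by 0.14 (Ndufb10) to 0.40 (Ndufc2), and the 15 that were not called ran down to -0.11. The Ndufb10 call held in 3 of 10 fits with 1 array left out.

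Complex I had a median change of 0.04 in day 4 liver. Ndufa6 read 11.67, 11.71, 11.57 and 11.71 in the controls and 11.99, 11.95, 11.97 and 11.94 in the restricted rats, with no overlap, a rise of 0.30 (SE 0.03, adjusted p = 0.00355). Ndufs7 read 10.99, 11.07, 11.20 and 11.07 in controls and 11.42, 11.32, 11.37 and 11.27 in restricted rats, a rise of 0.26 (SE 0.05, adjusted p = 0.0273). Ndufc2, a membrane arm subunit, rose by 0.20 (SE 0.03, adjusted p = 0.0156), and Ndufb3, another, by 0.19 (SE 0.04, adjusted p = 0.0417). Neither overlapped between groups. With 1 array left out, Ndufa6 was called in 8 of 8 fits, Ndufc2 in 7, Ndufs7 in 2 and Ndufb3 in 1. Ndufs1 and Ndufv1 were not called, with changes of -0.13 (SE 0.07) and 0.02 (SE 0.03).

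In adipose tissue all 34 complex I genes lay below 0, with a median of -0.32, and 19 had groups that did not overlap. Of all probe sets 3.89% had restricted values wholly below, and bright probe sets had a median of -0.10. Ndufs1 read 11.80, 11.54, 11.38 and 12.19 in controls and 10.94, 11.07, 11.00 and 11.29 in restricted rats, a difference of -0.66 (SE 0.18, adjusted p = 0.337). The lowest control lay just above the highest restricted rat, and control replicate 4 was far above the other controls. Ndufs3 read 10.53, 10.43, 10.30 and 10.83 in controls and 9.82, 10.05, 9.73 and 9.89 in restricted rats, a difference of -0.65 (SE 0.12, adjusted p = 0.189). Ndufb10, a membrane arm subunit with the lowest adjusted p of the 90 genes (0.115), differed by -0.34 (SE 0.05).

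Complex II, the succinate dehydrogenase, had 1 gene of 4 called in day 10 liver. Sdhd, a membrane anchor, read 12.07, 12.01, 12.00, 12.03 and 11.94 in controls and 12.21, 12.22, 12.39, 12.23 and 12.42 in restricted rats, and rose by 0.28 (SE 0.05, adjusted p = 0.00499). The groups did not overlap. Sdha, the flavoprotein that oxidises succinate, differed by 0.07 (95% interval -0.00 to 0.13, adjusted p = 0.272), Sdhb, the iron-sulfur subunit, by 0.22 (0.06 to 0.37, adjusted p = 0.0905), and neither was called. The 4 genes ran in day 4 liver from -0.12 (Sdha, adjusted p = 0.109) to 0.05. In adipose tissue they ran from -0.58 (Sdhd, adjusted p = 0.337) to -0.29 (Sdha, adjusted p = 0.706).

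The largest change of all 90 genes in day 10 liver was that of Sdhaf3, an assembly factor that helps to fit the iron-sulfur subunit into complex II. It read 8.42, 8.39, 8.26, 8.15 and 8.18 in controls and 9.14, 8.98, 9.36, 9.15 and 9.14 in restricted rats. The groups lay far apart, and the gene rose by 0.87 (SE 0.08, adjusted p = 0.000196), which is 1.83-fold. Its day 4 liver values were 7.34, 7.86, 7.69 and 7.85 in controls and 8.29, 8.78, 8.17 and 8.11 in restricted rats. Those groups did not overlap either, but the difference of 0.65 (SE 0.18) had an adjusted p of 0.0971. The change at day 10 was 0.70 within the first scan day and 1.05 within the second.

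The other assembly factors did not share that change. Ndufaf3, a complex I factor, rose by 0.25 in day 10 liver (SE 0.07, adjusted p = 0.0386), with groups that overlapped and a call that held in 2 of 10 fits with 1 array left out. The median of the 10 was 0.01 in day 10 liver and -0.02 in day 4 liver, and their range at day 10 began at -0.21. In adipose tissue all 10 lay below 0 with a median of -0.23. The largest was Sdhaf4, a factor that stabilises the free flavoprotein, at 8.99, 8.74, 8.25 and 9.60 in controls and 8.34, 8.35, 8.35 and 8.32 in restricted rats, a difference of -0.55 (SE 0.26, adjusted p = 0.693). The controls were spread widely around the narrow restricted values.

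Complex III, the cytochrome bc1 complex, had 3 of 7 genes called higher in day 10 liver, and these were the Rieske protein and both core proteins. Uqcrfs1, the Rieske iron-sulfur subunit, read 12.09, 12.07, 12.00, 12.05 and 12.01 in controls and 12.44, 12.35, 12.46, 12.49 and 12.57 in restricted rats, a rise of 0.42 (SE 0.04, adjusted p = 0.000209). Uqcrc1, a core protein, read 11.85, 11.87, 11.81, 11.94 and 11.79 in controls and 12.17, 12.09, 12.32, 12.21 and 12.52 in restricted rats, a rise of 0.41 (SE 0.07, adjusted p = 0.00691). Uqcrc2, the other core protein, rose by 0.31 (SE 0.06, adjusted p = 0.00717). None of the 3 overlapped between groups, and restricted replicate 5 was the highest for each.

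Uqcrq, a small complex III subunit that binds ubiquinone, had day 4 liver values of 12.67, 12.69, 12.73 and 12.73 in controls and 12.56, 12.51, 12.56 and 12.58 in restricted rats. It fell by 0.15 (SE 0.02, adjusted p = 0.0122) and the groups did not overlap, but it lost its call when dim probe sets (mean below 5) were left out or a trended prior was used. In adipose tissue Uqcrq also showed the largest difference of the complex, with 11.45, 11.05, 11.31 and 11.42 in controls and 10.61, 10.70, 10.68 and 10.89 in restricted rats, a difference of -0.58 (SE 0.10, adjusted p = 0.161). Uqcrfs1 differed there by -0.32 (SE 0.15, adjusted p = 0.691) and Uqcrc1 by -0.37 (SE 0.17, adjusted p = 0.684), both with groups that overlapped.

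Complex IV, cytochrome c oxidase, had 5 of its 19 genes called higher in day 10 liver, with a median of 0.06. Of the 19, 7 lay near background with changes of about 0, and the median was 0.13 when dim probe sets (mean below 5) were left out. It ran from 0.00 (without control replicate 5 or restricted replicate 5) to 0.09 (without restricted replicate 1) with 1 array left out. Cox4i1, the common form of the regulatory subunit, read 13.46, 13.46, 13.42, 13.48 and 13.36 in controls and 13.67, 13.70, 13.75, 13.72 and 13.69 in restricted rats, a rise of 0.27 (SE 0.02, adjusted p = 0.000217). The groups did not overlap, and restricted replicate 5 was not above the other restricted rats. Cox5b and Cox6a1, small subunits, each rose by 0.24 (adjusted p = 0.0368 and 0.0198), and Cox6c rose by 0.14 (adjusted p = 0.0229). With 1 array left out, Cox5b was called in 3 of 10 fits, Cox6a1 in 9 and Cox6c in 7, and the Cox5b groups overlapped. Ndufa4, first assigned to complex I and now counted in complex IV, differed by -0.00 (95% interval -0.05 to 0.05). Cox5a differed by 0.06 (SE 0.19), with single values from 8.23 to 9.16 among restricted rats, and by -0.30 within the first scan day and 0.29 within the second.

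Cox7a2l, which joins complexes III and IV into supercomplexes and is counted here with complex IV, rose in both liver sets. In day 4 liver it read 10.58, 10.57, 10.58 and 10.42 in controls and 10.83, 10.83, 10.80 and 10.77 in restricted rats, a rise of 0.27 (SE 0.04, adjusted p = 0.00876). At day 10 it read 10.76, 10.73, 10.73, 10.83 and 10.78 in controls and 11.15, 11.06, 11.17, 11.21 and 11.40 in restricted rats, a rise of 0.43 (SE 0.06, adjusted p = 0.00117). The groups did not overlap in either set. Cox4i1 in day 4 liver also had groups apart, at 13.04 ± 0.0292 and 13.17 ± 0.0548 (SD, n = 4 each), but its difference of 0.14 missed the threshold (adjusted p = 0.0509).

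Tissue forms of complex IV subunits were mostly near background. Cox4i2, Cox6a2, Cox7a1 and Cox8b, the forms found in lung or in heart and skeletal muscle, had group means from 1.67 to 2.92 in all 3 sets, with changes from -0.00 to 0.05. Cox6b2, known as a form of testis, was near 2.2 in liver but was measured in adipose tissue. It read 6.53, 6.69, 6.63 and 7.07 in adipose controls and 6.27, 5.44, 6.06 and 5.72 in restricted rats, a difference of -0.86 (SE 0.20, adjusted p = 0.278). The groups did not overlap, and this was the largest difference of the 90 genes in that tissue. The common forms differed less there, with -0.19 for Cox4i1, -0.27 for Cox6a1 and Cox6b1, -0.31 for Cox8a and -0.41 for Cox5b, none of them called.

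Complex V, the ATP synthase, had 8 of 16 genes called higher in day 10 liver, with a median of 0.20, and all 16 lay above 0. The catalytic subunit Atp5f1b read 13.88, 13.90, 13.85, 13.92 and 13.82 in controls and 14.08, 14.09, 14.14, 14.14 and 14.25 in restricted rats, a rise of 0.27 (SE 0.03, adjusted p = 0.000978). Its partner Atp5f1a read 13.38, 13.29, 13.29, 13.33 and 13.32 in controls and 13.50, 13.45, 13.52, 13.56 and 13.67 in restricted rats, a rise of 0.22 (SE 0.04, adjusted p = 0.00593). Both had groups that did not overlap. The central stalk subunits Atp5f1d and Atp5f1c rose by 0.33 (adjusted p = 0.0102) and 0.30 (adjusted p = 0.00403), and Atp5mk, a small membrane subunit linked to synthase dimers, rose by 0.32 (adjusted p = 0.0181).

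The inhibitor Atp5if1, which blocks ATP hydrolysis by the synthase, was among the 8 complex V genes not called, as were Atp5me and Atp5mg (0.08 each). It read 8.70, 8.72, 8.67, 8.76 and 8.58 in day 10 controls and 8.60, 8.78, 8.63, 8.79 and 8.72 in restricted rats, a difference of 0.02 with a 95% interval of -0.09 to 0.13. At day 4 it differed by -0.12 (-0.25 to 0.00, adjusted p = 0.333) and in adipose tissue by -0.03 (-0.31 to 0.25, adjusted p = 0.863). Among the other complex V genes in adipose tissue Atp5po, the stalk subunit that confers sensitivity to oligomycin, differed most, with 12.28, 12.04, 12.08 and 12.40 in controls and 11.60, 11.75, 11.78 and 11.82 in restricted rats. The difference was -0.47 (SE 0.09, adjusted p = 0.206), without overlap.

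**Figure D3:**
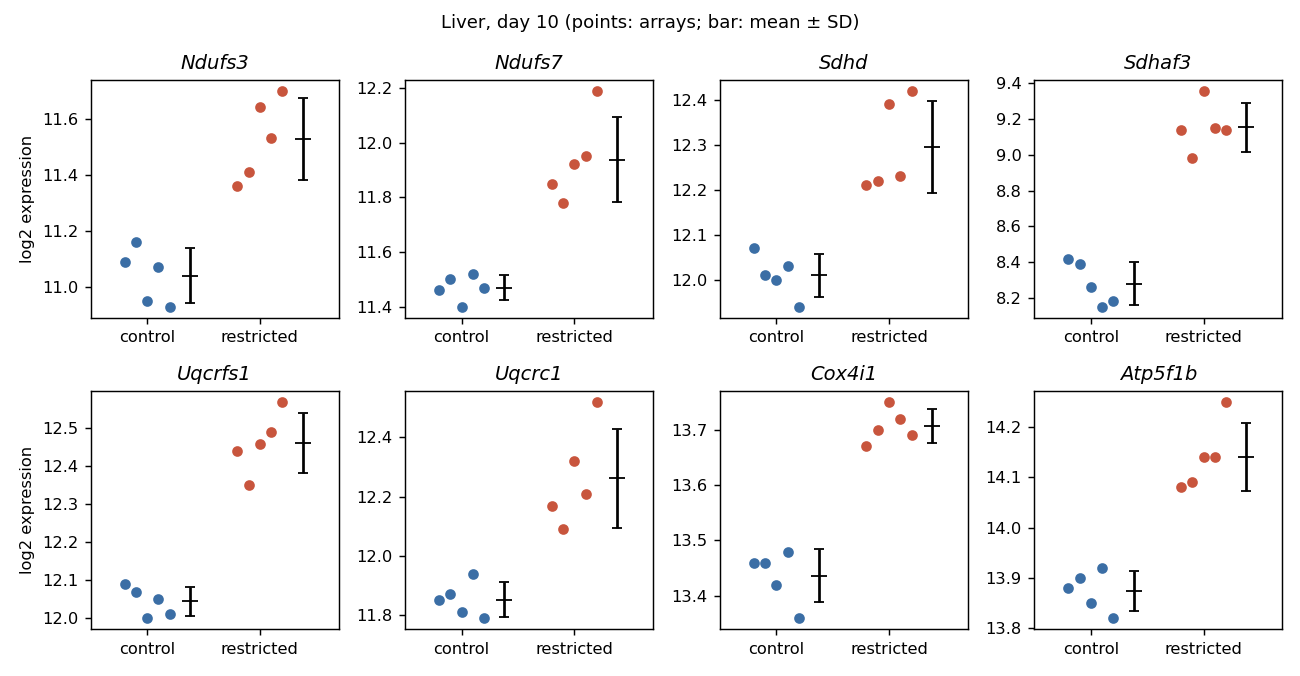
Log2 expression of 8 genes in day 10 liver, with each point an array (5 controls, 5 restricted) and bars of the mean ± SD. In each panel every restricted array lies above every control array, with the widest gap for Sdhaf3.

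**Figure D4:**
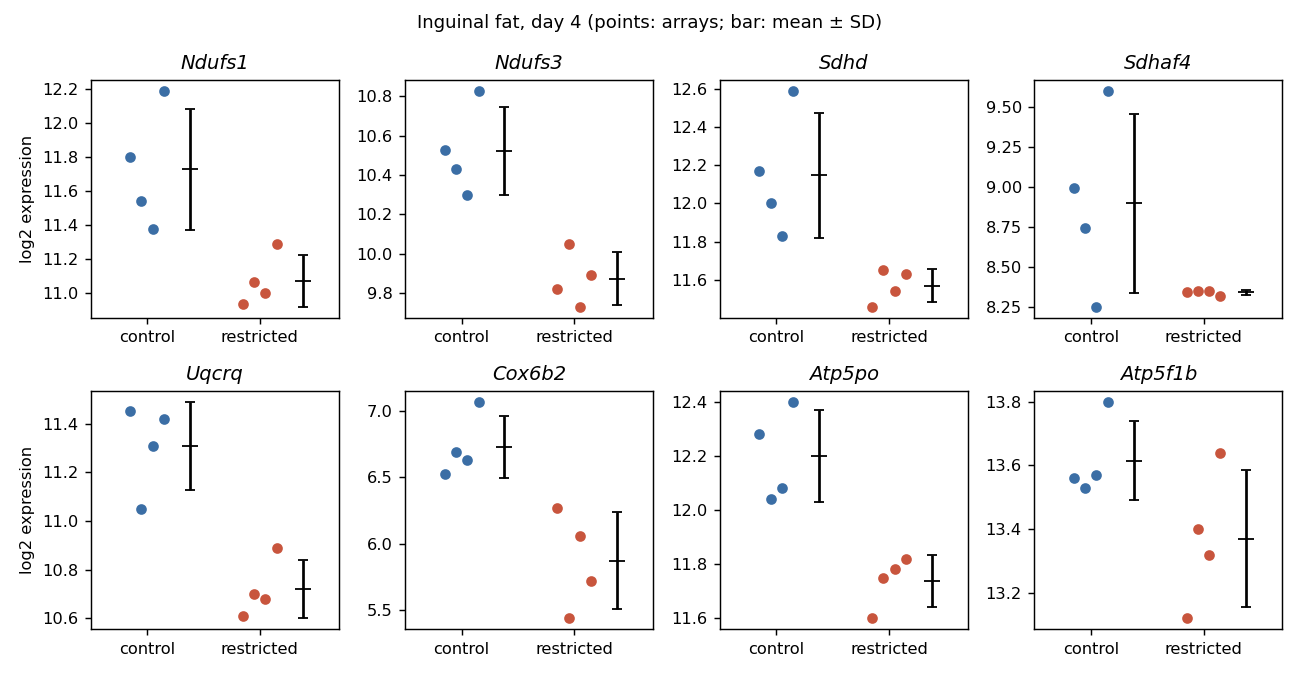
Log2 expression of 8 genes in adipose tissue, with each point an array (4 controls, 4 restricted) and bars of the mean ± SD. The restricted arrays lie lower on average in each panel, with overlap for Sdhaf4 and Atp5f1b, and control replicate 4 is the highest control in each panel except Uqcrq.

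Promoters of 5 genes that rose in day 10 liver are shown because they hold letters matched by factors known to act on respiratory chain genes, and they were chosen after the search. Each sequence runs from 250 bases before to 50 after the gene's start and is from RefSeq, build GRCr8, 5′ to 3′ on the gene's strand, with matches in capitals. They lie at chr4:36066713-36067012 (Sdhaf3, plus strand), chr19:65630133-65630432 (Cox4i1, plus), chr7:115750268-115750567 (Ndufa6, minus), chr8:59850592-59850891 (Sdhd, minus) and chr8:118467973-118468272 (Uqcrc1, plus).
Sdhaf3: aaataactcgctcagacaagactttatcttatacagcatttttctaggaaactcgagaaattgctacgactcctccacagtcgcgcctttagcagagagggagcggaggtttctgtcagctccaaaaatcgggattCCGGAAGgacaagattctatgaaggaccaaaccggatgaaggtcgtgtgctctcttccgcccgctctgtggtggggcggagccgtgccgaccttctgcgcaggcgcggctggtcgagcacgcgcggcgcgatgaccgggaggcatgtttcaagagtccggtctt
Cox4i1: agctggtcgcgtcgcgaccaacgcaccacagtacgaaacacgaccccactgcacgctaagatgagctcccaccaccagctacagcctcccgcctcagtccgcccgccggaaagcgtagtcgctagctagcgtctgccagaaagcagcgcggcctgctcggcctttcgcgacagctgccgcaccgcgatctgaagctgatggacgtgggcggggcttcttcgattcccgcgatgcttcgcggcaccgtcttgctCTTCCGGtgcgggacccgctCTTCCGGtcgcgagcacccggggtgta
Ndufa6: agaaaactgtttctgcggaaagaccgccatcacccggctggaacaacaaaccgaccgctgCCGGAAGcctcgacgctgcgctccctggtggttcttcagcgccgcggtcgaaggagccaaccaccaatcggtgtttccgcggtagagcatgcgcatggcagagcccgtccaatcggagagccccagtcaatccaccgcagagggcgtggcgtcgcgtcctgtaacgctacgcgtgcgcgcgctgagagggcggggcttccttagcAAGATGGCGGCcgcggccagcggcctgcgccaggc
Sdhd: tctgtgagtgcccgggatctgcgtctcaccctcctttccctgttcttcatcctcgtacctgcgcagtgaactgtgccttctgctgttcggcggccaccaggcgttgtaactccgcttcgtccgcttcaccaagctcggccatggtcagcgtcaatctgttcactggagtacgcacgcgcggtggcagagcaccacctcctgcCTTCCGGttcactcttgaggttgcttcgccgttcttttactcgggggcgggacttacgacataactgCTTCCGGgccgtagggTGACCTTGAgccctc
Uqcrc1: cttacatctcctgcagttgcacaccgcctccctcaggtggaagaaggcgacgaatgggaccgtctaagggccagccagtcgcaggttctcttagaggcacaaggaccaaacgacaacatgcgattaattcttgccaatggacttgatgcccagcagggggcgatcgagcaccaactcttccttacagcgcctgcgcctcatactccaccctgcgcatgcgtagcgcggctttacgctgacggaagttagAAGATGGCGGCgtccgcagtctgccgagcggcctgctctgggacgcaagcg
The motifs searched, on both strands, were CCGGAAG (the ETS core bound by GABPA), the extended YY1 motif, TNAAGGTCA (estrogen-related receptors) and the palindromic core of NRF1. Sdhaf3 and Cox4i1 hold the ETS core, Ndufa6 the ETS core and the YY1 motif, Sdhd the ETS core and the receptor motif, and Uqcrc1 the YY1 motif, whose letters are its capitals.

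Of the 90 genes 82 had a promoter in the table. The ETS core was in 30.5% of these and in 11.2% of the promoters of all 19005 protein-coding genes, the YY1 letters in 11% and 1.08%, the estrogen-related receptor letters in 3.66% and 0.994%, and the NRF1 letters in 6.1% and 1.14%. Among the 34 with a promoter that rose in day 10 liver, 10 held the ETS core, 6 the YY1 letters, 2 the receptor letters and 0 the NRF1 letters. Among the 48 that did not, the counts were 15, 3, 1 and 5. A match says only that the letters are there.

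The changes of day 10 liver were set against those of day 4 liver in 1 fit, since a call in one set and not in the other shows no difference by itself. The change was larger at day 10 for 5 genes and smaller for none, where 0.377% of all probe sets were called higher and 0.277% lower. At an unadjusted p below 0.05 the difference was higher for 47 genes and lower for 1, against 4.28% and 4.12% of all probe sets. The median difference was 0.16 and 77 of the 90 genes lay above 0, while the median over all genes with 1 symbol was -0.01. The regimens differ in length, ration and feed form, and these cannot be told apart here.

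The 5 were spread over complexes I, III and V. Ndufs1 changed by -0.13 at day 4 and 0.34 at day 10, a difference of 0.46 (SE 0.10, adjusted p = 0.0456). Ndufv2 changed by -0.12 and 0.30, a difference of 0.42 (SE 0.09, adjusted p = 0.0395). Atp5f1a changed by -0.16 and 0.22, a difference of 0.38 (SE 0.07, adjusted p = 0.017). These 3 turned from below 0 to above 0, though none of them was called at day 4. Uqcrfs1 differed by 0.32 (SE 0.05, adjusted p = 0.0124) and Atp5f1b by 0.20 (SE 0.04, adjusted p = 0.0412), from smaller positive changes at day 4. The count was 8 without day 10 restricted replicate 1, and 3 without day 10 control replicate 4 or day 4 control replicate 2. It was 2 without day 10 control replicate 1, 2, 3 or 5, day 10 restricted replicate 3 or 4, day 4 control replicate 3 or 4, or day 4 restricted replicate 1, 2 or 3, and Uqcrfs1 and Atp5f1a were called in all 18 such fits. For Sdhaf3, Ndufa6 and Cox7a2l, which led the day 4 changes, the difference between regimens was not called.

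**Figure D5:**
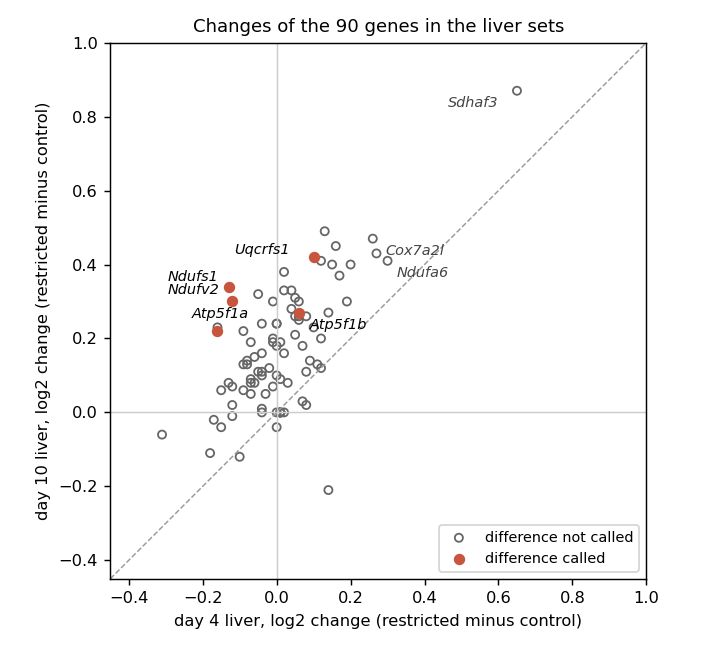
Change of each of the 90 genes in day 4 liver (horizontal, log2, restricted minus control) against day 10 liver (vertical), with genes filled where the difference between the sets had an adjusted p below 0.05 and a dashed line of equal change. Most points lie above the line, and the 5 filled genes are Ndufs1, Ndufv2, Atp5f1a, Uqcrfs1 and Atp5f1b.

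The same 4-day regimen was compared between adipose tissue and liver. The change was lower in adipose tissue for 16 genes and higher for none, where 2.16% of all probe sets were called lower and 1.25% higher. Of the bright probe sets 10.8% were called lower, against 20% of the 65 respiratory chain genes that are that bright. At an unadjusted p below 0.05 the difference was lower for 55 genes and higher for 0, against 8.41% and 4.62% of all probe sets. The median difference was -0.29, and over all genes with 1 symbol 0.01. It was -0.17 with the arrays quantile normalized, and bright probe sets had a median of -0.14. The 4 liver arrays of each group enter both this difference and the one between regimens.

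Of the 16, 10 belong to complex I, 3 to complex V and 1 each to complexes II, III and IV. Ndufs3 changed by -0.65 in adipose tissue and 0.13 in liver, a difference of -0.78 (SE 0.14, adjusted p = 0.00693). Ndufc2 changed by -0.45 and 0.20, a difference of -0.64 (SE 0.14, adjusted p = 0.0226). Cox6b2 differed by -0.86 (SE 0.21, adjusted p = 0.0391), but it is near background in liver, where no change could show. The fit shares 1 spread per gene over both tissues. For Cox6b2 the SDs were 0.238 and 0.367 in adipose controls and restricted rats, and 0.0192 and 0.023 in liver. In adipose tissue alone none of the 16 was called by limma, with an adjusted p of 0.278 for Cox6b2, 0.189 for Ndufs3 and 0.393 for Ndufc2. With 1 array left out the count ran from 8 to 23, and Ndufs3 and Ndufc2 were called in all 16 such fits while Cox6b2 was called in 5. The count was 9 without adipose control replicate 1, liver control replicate 1 or liver restricted replicate 3 or 4, 10 without liver control replicate 2, 3 or 4, and 8 without liver restricted replicate 1.

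Other mitochondrial genes were read from lists. At day 10, 6 of 9 chain parts outside the prefixes rose in liver, where 5.82% of all probe sets were called higher and 5.36% lower, among them Higd1a, a hypoxia-induced partner of complex IV (0.55, adjusted p = 0.000447), Etfb, which carries electrons from fatty acid oxidation (0.49, adjusted p = 5.93e-05), and Cyc1, the cytochrome c1 of complex III (0.38, adjusted p = 0.00202). Of 18 membrane and import proteins 11 rose and 1 fell. The 1 was Cs, citrate synthase of the citric acid cycle, which the list holds though it is neither a membrane nor an import protein. Cs fell by 0.44 (adjusted p = 0.000398) and also fell in day 4 liver by 0.48 (adjusted p = 0.015). Of 73 mitochondrial ribosomal proteins 21 rose and 2 fell, of 31 assembly factors outside the prefixes 6 rose, and of 12 genes of coenzyme Q synthesis 3 rose and 1 fell. The medians of these lists were 0.28, 0.28, 0.10, 0.12 and 0.07. Among bright probe sets 28.8% were called higher and 22.9% lower, and the lists were not split by brightness.

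Of 20 regulators of mitochondrial biogenesis 3 rose and 2 fell in day 10 liver. Over all probe sets tested there, 5.82% were called higher and 5.36% lower. Ppargc1a, a coactivator of respiratory chain genes, went from 3.47 ± 0.205 to 7.25 ± 1.28 (SD, n = 5 each), a rise of 3.78 (SE 0.55, adjusted p = 0.00206). Its control level lay near the array medians of that set, 3.23 to 3.32. Esrra, an estrogen-related receptor, rose by 1.05 (SE 0.21, adjusted p = 0.0125), and Nrip1, a corepressor, fell by 0.82 (SE 0.21, adjusted p = 0.0377). In day 4 liver Ppargc1a rose by 0.85 (SE 0.17, adjusted p = 0.0351) and Tfam, which packages and transcribes mitochondrial DNA, by 0.39 (SE 0.07, adjusted p = 0.017). Polg, the mitochondrial DNA polymerase, fell at day 4 by 0.63 (adjusted p = 0.0407) and at day 10 by 0.78 (adjusted p = 0.015), and Polg2, its accessory subunit, rose at day 10 by 1.88 (adjusted p = 0.000533).

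Of the same lists in day 4 liver 3 of 9 chain parts, 4 of 31 assembly factors, 6 of 73 ribosomal proteins, 2 of 18 membrane and import proteins and 0 of 12 genes of coenzyme Q synthesis rose, where 2.94% of all probe sets were called higher. Of bright probe sets 18.3% were called higher there. The difference from day 10 was not tested for these lists. In adipose tissue no gene of the 6 lists was called, with medians of -0.23 for chain parts, -0.20 for assembly factors, -0.18 for coenzyme Q synthesis, -0.05 for regulators, -0.20 for membrane and import proteins and -0.24 for ribosomal proteins. Esrrg, an estrogen-related receptor, had the largest difference among the regulators there, from 8.56 ± 0.815 to 6.85 ± 0.743 (SD, n = 4 each), -1.71 with an adjusted p of 0.404. Ppargc1a was near background in adipose tissue, at 3.41 ± 0.0826 in controls and 3.47 ± 0.0822 in restricted rats.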

How the data were processed

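RNA of 26 rats was measured on Affymetrix arrays, 1 array a rat. The deposited values are log2 expression per probe set, a scale read from the values; the authors pre-processed the 3 sets separately, per the series design text. R 2.4.1, affy 1.12.2, RMA and GCRMA 2.6.0 are named per the submitters' processing notes; which of RMA and GCRMA made these values is not given in the sources used here.

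The table holds 31099 probe sets; without the array's 57 controls, 31042 were tested with no further filter. Of these 20826 had 1 gene symbol in the platform annotation, 436 had several and 9780 had none here; symbols were updated through RefSeq gene IDs. Of the 90 genes 10 had several probe sets, and 7 probe sets that also name another gene were not used. Each set was fitted with limma (lmFit and eBayes, Benjamini-Hochberg adjustment, two-sided), after a test on simulated data; differences between sets were interaction terms of 1 fit over both sets. A change is restricted minus control on the log2 scale, and a gene was called at an adjusted p below 0.05. Groups do not overlap where every value of one lies above every value of the other. The number of arrays limits the precision.

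Named genes were the largest called changes in each set and complex, the largest called differences, a list of core subunits and tissue isoforms, and the largest called genes of the pathway lists; others named for illustration (such as Ndufb10, Ndufv2, Sdhd in adipose tissue, Cyc1 and Esrrg) were chosen after their values were seen. The members and lists were chosen with earlier results of these data known. Alternatives were a replicate block, scan day as a block or alone, a minimum mean of 5, centring, quantile normalization, other probe set rules, platform symbols, a trended robust prior, array weights, 1 fit over the 3 sets, and each array left out. The labels do not pair arrays by replicate number. The correlation of same-numbered arrays' deviations from their group means ran from -0.39 to 0.233 over the sets, and from -0.0933 to 0.108 in day 10 liver. Scan records of day 4 liver were not used here. Software was R 4.3.3, limma 3.58.1, python 3.11.15, pandas 2.3.3, numpy 2.4.6, scipy 1.17.1 and matplotlib 3.10.9.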

Additional observations from a re-analysis of the deposited data

Results flagged for a closer look

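In 8 of the 178 groups of arrays looked at, 1 array lay far from the others of its group, and chance alone sets about 1 in 20 groups apart in this way. In adipose tissue control replicate 4 read 13.80 for Atp5f1b, where the other controls read 13.53 to 13.57, and 1.92 for Cox4i2, near background, where the others read 1.96 to 1.97. In day 4 liver control replicate 3 read 2.29 for Cox6b2 against 2.25 to 2.26, and 2.18 for Cox7a1 against 2.10 to 2.11, both near background. In the same set control replicate 4 read 10.42 for Cox7a2l against 10.57 to 10.58. In day 10 liver control replicate 1 read 10.13 for Ndufa5 against 10.25 to 10.29. Restricted replicate 5 of that set read 10.87 for Ndufa5 against 10.61 to 10.68, and 11.88 for Uqcrc2 against 11.58 to 11.66.

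The change from control to restricted rats differed between sets for 6 named genes by the interaction term in limma, with 1 spread per gene shared over both sets. Between day 10 and day 4 liver the difference was 0.46 for Ndufs1 (adjusted p = 0.0456), 0.42 for Ndufv2 (adjusted p = 0.0395) and 0.38 for Atp5f1a (adjusted p = 0.017). Between adipose tissue and liver at day 4 it was -0.86 for Cox6b2 (adjusted p = 0.0391), -0.78 for Ndufs3 (adjusted p = 0.00693) and -0.64 for Ndufc2 (adjusted p = 0.0226). With 1 array left out, Ndufs1 was called in 5 and Ndufv2 in 4 of 18 fits, and Cox6b2 in 5 of 16. Cox6b2 is near background in liver, where no change could show. On the adipose arrays handling and diet cannot be told apart.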

How the results depend on the processing

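No called gene turned its direction with 1 array left out. Over all the alternatives, some values near 0 did turn. Cox5a in day 10 liver, which was not called, went from 0.06 to -0.30 on scan day 1 alone. The assembly factor median in liver ran over all the alternatives from -0.02 to 0.07 at day 10 and from -0.09 to 0.03 at day 4. In adipose tissue the count of genes called lower was 0, and 49 with 1 fit over the 3 sets and 27 with array weights; it was 0 with the replicate block and with any 1 array left out (0 to 0). In day 4 liver the 5 called higher became 3 with 1 fit over the 3 sets, with centring or with a trended robust prior, 8 with array weights and 2 with the replicate block; the 1 called lower became 3 with array weights, 2 with quantile normalization and 0 with the trended prior or a minimum mean of 5. With 1 array left out these ran from 2 to 6 and from 1 to 2, with 2 lower without control replicate 1 or restricted replicate 4. In day 10 liver the 38 called higher became 21 with the replicate block, 9 on scan day 1 alone and 5 on scan day 2 alone, where fewer arrays enter the fit; array weights called 1 lower. With 1 array left out the counts ran from 29 to 42 higher and from 0 to 1 lower, the 1 without control replicate 1 or restricted replicate 1. Of the 38 genes, 26 were called in every such fit and 12 were lost in some. The 5 differences between the liver sets became 9 with quantile normalization and 1 with the replicate block, and ran from 2 to 8 with 1 array left out. The 16 lower differences between adipose tissue and liver became 10 with quantile normalization and 9 with the replicate block, and ran from 8 to 23. Other causes of these shifts were not tested. The replicate numbers pair no arrays by the labels, and not every array was most like the array of its own number. Probe sets near background limit what could be seen for the tissue isoforms.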
